A study of Mus musculus with 244 samples.

Results

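The genes described here are 10 genes of heat shock proteins, chosen by name from the 25122 named genes of a table of single mouse ovarian cells: *Hspa1a*, *Hspa1b*, *Hspa2*, *Hspa5* and *Hspa8* of the HSP70 family, *Hsp90aa1* and *Hsp90ab1* of the HSP90 family, their partners *Dnajb1* and *Hsph1*, and the small heat shock protein gene *Hspb1*. The choice rests on the names, and it was made with earlier results of these data known. The study collected single oocytes and single somatic cells from ovaries of outbred CD-1 mice, for which no altered allele or treatment is named, on postnatal day 6, and made 1 SMART-Seq2 library from each cell. SMART-Seq2 copies whole transcripts and counts reads without molecular identifiers.

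Oocytes numbered 59, of which 13 came from primordial follicles, 19 from follicles in transition to the primary stage, 20 from primary and 7 from secondary follicles. Somatic cells at the same stages, in the same order, numbered 40, 47, 56 and 42. All cells, oocytes and somatic cells alike, went through enzymatic dissociation. Per the labels, Accutase acted for 5 min on follicles of the primordial and transitioning stages and for 10 min on larger ones, at 37 °C. Between stages of different digestion time, such as primary over primordial, the 2 cannot be told apart. Ovaries were pooled and no label ties a cell to an animal or a collection, so each cell type or stage on a plate was treated as 1 sample. No test within a plate was possible, and each ratio is given with a 95% interval that covers counting error only.

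Heat shock proteins are chaperones that keep other proteins folded. Members of the HSP70 family hold unfolded stretches of protein in a cycle driven by ATP, J-domain proteins such as DNAJB1 start that cycle, and nucleotide exchange factors such as HSPH1 end it. *Hspa1a* and *Hspa1b* are nearly silent in resting cells and are switched on by heat and other insults through heat shock factor HSF1, whereas *Hspa8*, *Hsp90ab1* and the endoplasmic reticulum chaperone *Hspa5* are made in nearly every cell. Dissociation of tissue is known to induce the inducible members together with immediate early genes. Oocytes grow while their follicles grow, store transcripts, and are known in mice to carry HSP90 as an abundant protein.

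Upstream sequences of 4 genes are printed because they hold a known stress motif. They are RefSeq sequences of build GRCm38.p6, on the strand of the gene, 5′ to 3′. The lines of *Hspa1a*, *Hspa1b* and *Hspb1* end at the base before the annotated start of transcription, and capitals mark the core of a heat shock element, GAANNTTC, which reads the same on both strands, the letters bound by heat shock factors. In the *Hspa5* line capitals mark the ER stress element, which is known to drive *Hspa5* in the unfolded protein response.
Hspa1a (chr17:34972157-34972306, minus strand): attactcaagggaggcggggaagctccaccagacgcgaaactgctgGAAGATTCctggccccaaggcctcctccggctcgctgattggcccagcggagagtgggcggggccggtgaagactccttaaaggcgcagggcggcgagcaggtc
Hspa1b (chr17:34959239-34959388, minus strand): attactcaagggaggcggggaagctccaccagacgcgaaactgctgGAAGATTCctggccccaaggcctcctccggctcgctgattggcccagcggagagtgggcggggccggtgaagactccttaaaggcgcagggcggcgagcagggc
Hspb1 (chr5:135887769-135887918, plus strand): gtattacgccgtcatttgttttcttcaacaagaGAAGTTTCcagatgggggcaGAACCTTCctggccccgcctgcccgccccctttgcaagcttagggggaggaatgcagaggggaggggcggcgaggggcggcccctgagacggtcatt
Hspa5 (chr2:34772020-34772049, plus strand): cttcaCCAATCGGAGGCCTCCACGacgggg

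*Hspa1a* and *Hspa1b* differed at 1 of these 150 upstream positions (99.3% identical), with the same core ending 97 bases before the start in both. *Hspb1* had cores ending 110 and 90 bases before its start. The core was found in 3.95% of 32851 mouse promoters over the same 150 bases. *Hsph1* had no such core but the other arrangement of the same units, TTCNNGAA, at 33 to 26 bases before the start of its upstream promoter entry, and 4.21% of promoters hold that one. The ER stress element of *Hspa5*, at 65 to 47 bases before its start, was found in 0.0822% of them, or 27 promoters. Neither arrangement was found in these windows of *Hspa2* and *Dnajb1*, and no motif says that a factor was bound. Promoter sequences were found for 7 of the 10 genes, and *Hspa8*, *Hsp90aa1* and *Hsp90ab1* are only named.

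The libraries were spread over 6 plates, and a plate lists a gene for all of its cells or for none. Plates 1 to 6 list 4, 2, 5, 2, 6 and 4 of the 10 genes. *Hspa1a* and *Hspa1b* are listed on every plate, *Hspb1* on plates 3, 5 and 6, *Hsph1* on plates 1 and 3, *Dnajb1* on plate 1, *Hspa8* on plate 3, *Hspa2*, *Hspa5* and *Hsp90aa1* on plate 5, and *Hsp90ab1* on plate 6. Plate 3 holds 22 somatic cells and no oocyte, so *Hspa8* has no value in oocytes. Plates 1, 2, 4, 5 and 6 hold 13, 8, 15, 10 and 13 oocytes and 37, 32, 16, 66 and 12 somatic cells. Every ratio was taken within a plate, and levels of different plates are only put side by side. Values are in CPM, counts scaled to a common total over all named genes of the plate, pooled over the cells of a group unless a cell is meant.

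Total counts were 5440 to 801258 in oocytes (median 96024) and 5150 to 409310 in somatic cells (median 72279), and the median share of reads on rRNA was 10.1% in oocytes and 24.3% in somatic cells. Each cell type carried its defining markers. Oocyte marker genes summed to 8100 to 67021 CPM in oocytes and 30.1 to 2699.9 CPM in somatic cells, and granulosa cell markers to 2.74 to 110 CPM in oocytes and 9337 to 36593 CPM in somatic cells. Many of these markers are among the genes by which the authors removed cells high in markers of the other type. Low sums in the other type were thus partly set in advance. Stroma markers summed to 21.98 to 7720.1 CPM in somatic cells, and the part of other cell types in what follows was not tested. Part of the oocytes of plates 1, 2 and 4 carry another second plate code than the somatic cells of the same plate, and what the code stands for is not given. On plate 1 the 3 oocytes that share the code of the somatic cells had 1.31 CPM of *Hspa1a* and *Hspa1b* together and the other 10 had 20.3 CPM, all far below the somatic cells described next. For 2 cells the title and the metadata give different stages.

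The inducible pair *Hspa1a* and *Hspa1b* was lower in oocytes than in somatic cells on all 5 plates that hold both cell types, although on plate 4 a single somatic cell made the difference. An exact two-sided permutation test that flips the signs of the 5 plate ratios gave p = 0.0625 for each of the 2 genes (0.0625 adjusted over both), the smallest p that 5 plates allow, so the design cannot pass 0.05. It was chosen after seeing the data, and no label says whether plates share animals. *Hspa1a* lies on chromosome 17 from 34969190 to 34972156 (GRCm38) and *Hspa1b* beside it from 34956436 to 34959238, both on the minus strand. Of the stretches of 50 bases in the *Hspa1a* transcript, 58.8% also occur in *Hspa1b*, so reads of either gene cannot be assigned with certainty and their sum is the firmer value. All 18 values of the 10 genes between the cell types were past 2-fold on their plates. Of all genes tested (at least 5 CPM and more than 3 counts in 1 of the groups) the percentages past 2-fold in either direction were 70.1% on plate 1, 84.1% on plate 2, 81.2% on plate 4, 69.4% on plate 5 and 73.9% on plate 6, so passing 2-fold was common here. In oocytes 15 of the 18 values were lower, most of them those of *Hspa1a* and *Hspa1b*, and 3 were higher.

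Stages differ between the cell types on most plates. Plate 2 holds 7 primordial and 1 primary oocyte beside 32 primary somatic cells, and plate 6 holds 3 transitioning, 8 primary and 2 secondary oocytes beside 1 transitioning and 11 secondary somatic cells, so on plates 2 and 6 cell type, stage and digestion time cannot be fully told apart. Where 1 stage had at least 3 cells of both types, the pair was lower in oocytes too. The log2 ratio was −4.75 (−5.26 to −4.28) in primordial and −7.35 (−9.63 to −5.79) in primary cells of plate 1, and −8.29 (−11.3 to −6.44) in primary and −6.94 (−8.56 to −5.71) in secondary cells of plate 5. The 3 last values rest on 2 to 5 oocyte counts.

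On plate 6 no oocyte reached the level of any somatic cell for this pair. The sum of *Hspa1a* and *Hspa1b* was 0, 27.8 and 181.4 CPM in the lowest, median and highest of 13 oocytes, against 822, 2494 and 6039.8 CPM in 12 somatic cells. Pooled, it was 29.1 CPM in oocytes and 2895 CPM in somatic cells, a log2 ratio of −6.63 (−7.25 to −6.08). Such a gap without overlap, with oocytes below, was seen for 1.26% of the genes tested on plate 6, among them *Hspa1a*, *Hspa1b* and *Hsp90ab1* of the 4 genes listed there.

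On plate 2 the sum was 0, 8.12 and 597 CPM in the lowest, median and highest of 8 oocytes, against 0, 4559 and 23353 CPM in 32 somatic cells. The pooled values were 20.6 CPM in oocytes and 4664 CPM in somatic cells, a log2 ratio of −7.82 (−8.17 to −7.49). The groups overlapped at the bottom, where somatic cells without a read stood beside oocytes. A single primordial oocyte with 597 CPM and 83780 counts in all carried the highest oocyte value, and 6 of the 8 oocytes had a read of the pair. With the highest cell of each group left out, the log2 ratio of *Hspa1a* was −10.11 in place of −7.79.

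On plate 5 the sum was 0, 6.75 and 406 CPM in 10 oocytes, against 0, 929 and 11080 CPM in 66 somatic cells, with pooled values of 88.02 CPM in oocytes and 1866 CPM in somatic cells (log2 ratio −4.41, −4.80 to −4.04). Here 1 oocyte made most of the oocyte value. It was the plate's only primordial oocyte, with 53 of the 60 counts. With the highest cell of each group left out, the log2 ratio of *Hspa1a* was −6.89 in place of −4.08.

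On plate 1 the sum was 0, 0 and 45.01 CPM in 13 oocytes, against 0, 0 and 3465 CPM in 37 somatic cells. Reads were present in 18 of 37 somatic cells, so both medians were 0 and the difference lay in the upper part of the somatic cells: 14 of 37 were above the highest oocyte for *Hspa1a* and 15 of 37 for *Hspa1b*. Pooled values were 11.9 CPM in oocytes and 385 CPM in somatic cells, a log2 ratio of −5.02 (−5.50 to −4.57). For *Hspa1a* alone it was −5.09, and −7.19 with the highest cell of each group left out.

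Plate 4 stood apart from the rest. Its 16 somatic cells, all from transitioning follicles, had 0, 0 and 196.7 CPM of the pair, and 2 of them had any read. The 15 oocytes had 0, 0 and 4.77 CPM, all of it 3 counts of *Hspa1a* in 1 cell. The pooled values were 0.914 CPM in oocytes and 18.2 CPM in somatic cells, a log2 ratio of −4.31 with a wide interval (−6.63 to −2.69). Of the 56 somatic counts, 55 were in 1 cell. With the highest cell of each group left out, oocytes had 0 counts and somatic cells 1 count, at which no difference was detectable.

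**Figure D1:**
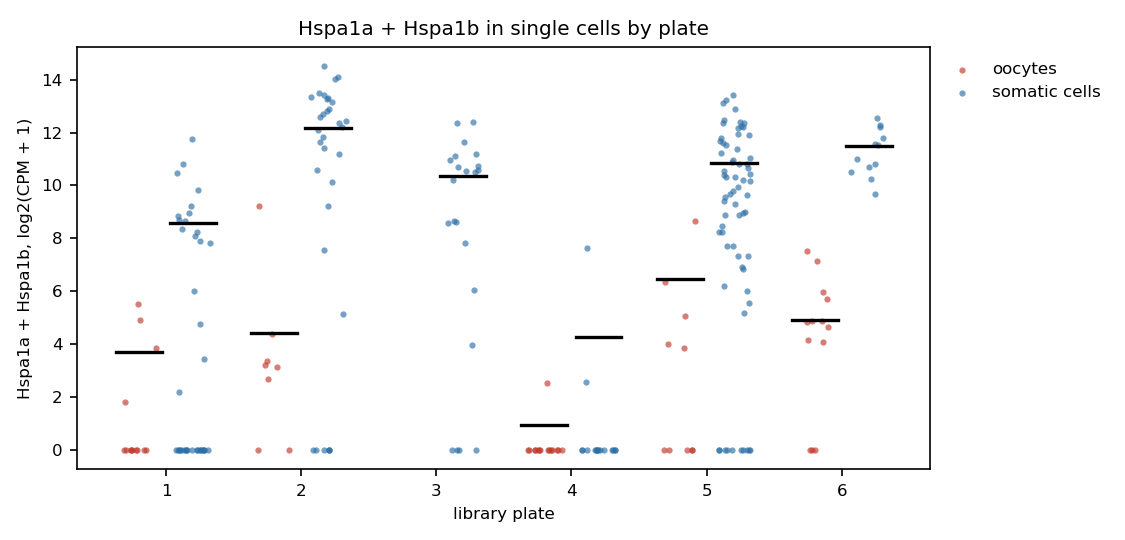
*Hspa1a* plus *Hspa1b* in single cells of each plate, on the scale log2(CPM + 1), with oocytes in red on the left and somatic cells in blue on the right of each plate. Points are cells and black lines are pooled values; the oocyte line lies below the somatic line on all 5 plates that hold both, and on plate 6 the 2 clouds do not overlap.

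Reads were also found in a smaller share of oocytes than of somatic cells on plates 1, 2, 5 and 6. Shares of cells with a read of the pair were 30.8%, 75%, 50% and 76.9% in oocytes of plates 1, 2, 5 and 6, against 48.6%, 81.2%, 84.8% and 100% in somatic cells. Exact binomial 95% intervals ran over 9.09% to 61.4%, 34.9% to 96.8%, 18.7% to 81.3% and 46.2% to 94.96% in oocytes, and 31.9% to 65.6%, 63.6% to 92.8%, 73.9% to 92.5% and 73.5% to 100% in somatic cells, overlapping on every plate. Such intervals take cells as independent draws, which no label states. They leave out differences between animals and collections and describe these cells only. When every cell was thinned to 12000 counts, so that depth was equal, these shares were 0%, 12.5%, 10.0% and 46.2% in oocytes (the 0% being 0 of 10, which allows up to 30.8%) against 37.8%, 80.6%, 80% and 100% in somatic cells. On plate 4 the thinned shares were 7.14% of oocytes and 6.25% of somatic cells, and no order can be read from them. Thinning moved the shares of oocytes on plates 1, 2, 5 and 6 by more than those of somatic cells.

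The granulosa marker *Inha*, which encodes the inhibin alpha subunit, was set beside the oocyte reads of the pair. For each *Inha* count, oocytes had 0.241, 1.85, 0.600, 1.11 and 0.765 counts of the *Hspa1a* and *Hspa1b* pair on plates 1, 2, 4, 5 and 6, against 0.0492, 0.270, 0.000938, 0.156 and 0.0859 in somatic cells. Over *Inha* the ratio was higher in oocytes on each plate, but other granulosa markers did not all give this order. Over *Krt18* it was lower in oocytes on plates 1, 2 and 5 and higher on plate 4. Oocytes of plate 6 had 0 counts of *Krt18*. Over *Foxl2* it was lower in oocytes on plates 2 and 6 and higher on plates 1, 4 and 5. Oocytes had at most 11 counts of either marker on a plate. *Inha* is among the somatic genes by which the authors removed oocytes, so its low oocyte counts were partly set by that filter. The oocyte ratios rest on 5 (plate 4) to 170 (plate 1) *Inha* counts. The part of somatic RNA in the oocyte reads was not tested, and in oocytes the pair rests on 3 to 72.2 counts a plate.

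The somatic level of the pair varied widely across plates. Scaled to CPM over the 13266 genes that every plate lists, primordial-stage somatic cells had 1899 on plate 1 and 2062 on plate 5. Transitioning-stage cells had 491 on plate 1, 3027 on plate 3 and 39.1 on plate 4. Primary-stage cells had 1878 on plate 1, 7999 on plate 2 and 5486 on plate 5, and secondary-stage cells 1358 on plate 1, 5373 on plate 5 and 6824 on plate 6. Transitioning cells of plates 3 and 4 thus were further apart than any pair of stages within plate 1 or plate 5, and plate and stage cannot be told apart except on plates 1 and 5.

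**Figure D2:**
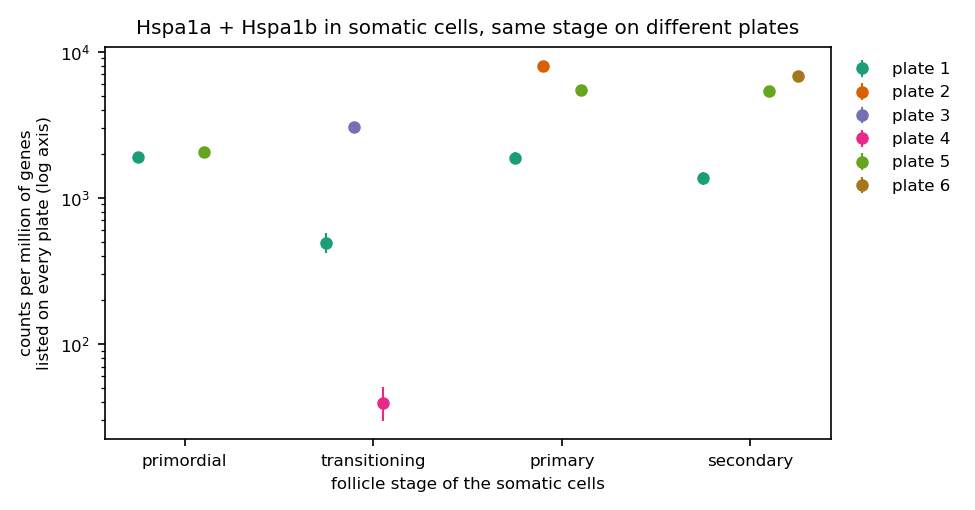
*Hspa1a* plus *Hspa1b* in CPM over the genes listed on every plate, on a log axis, for somatic cells of each stage and plate with at least 3 cells, pooled. Bars on the points are 95% counting intervals; transitioning somatic cells range between 39.1 on plate 4 and 3027 on plate 3.

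Within plates, *Hspa1a* and *Hspa1b* went up and down together over somatic cells. Spearman's rho between them was 0.83, 0.97, 0.88, 0.73, 0.91 and 0.69 on plates 1 to 6, over 37, 32, 22, 16, 66 and 12 cells. The plate 4 value rests on 1 cell with a read of *Hspa1a* and 2 with a read of *Hspa1b*, the others being tied at 0. Their shared sequence lets reads of one count for the other, so this is a description only. Among 1124 genes ranked by mean rho with *Hspa1a* over plates, *Hspa1b* came at the top with 0.84 over 6 plates, followed by *Arf1*, a GTPase of Golgi traffic (0.41, 3 plates), *Nbn*, a member of the DNA break repair complex MRN (0.41, 2 plates), *Ankrd49* (0.40, 2 plates) and *Gata4*, a transcription factor of granulosa cells (0.37, 2 plates). After *Hspa1b*, no gene was above 0.41.

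The immediate early genes, which are known to respond quickly to dissociation, were set beside the pair for that reason. All 24 gene-by-plate values of 7 such genes were lower in oocytes than in somatic cells, with a median log2 ratio of −6.16. *Jun*, a subunit of the transcription factor AP-1, had 3.66 CPM in oocytes and 7987 CPM in somatic cells of plate 4. Over somatic cells, rho between the pair and the summed immediate early genes was 0.06, 0.44, 0.03, −0.10, 0.17 and −0.32 on plates 1 to 6. For the sum this was a weak relation apart from plate 2, and on plate 4 only 2 of 16 cells had a read of the pair. *Jun* alone had a positive rho with *Hspa1a* on each of the 6 plates, 0.20 to 0.56 with a mean of 0.35. On plate 4 that rho rests on 1 of 16 cells with a read of *Hspa1a*. No other single immediate early gene is given here. In somatic cells of plates 1 to 6, *Jun* had 4554, 9287, 5229, 7987, 5453 and 8610 CPM, beside pair levels of 385, 4664, 1295, 18.2, 1866 and 2895 CPM. *Jun* and the pair thus had the same order on plates 1, 2, 3, 5 and 6, and plate 4 departed from it. Different genes make up the total on each plate and stages differ between plates, so this order is a description only.

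*Dnajb1*, the stress-inducible J-domain partner of HSP70, was lower in oocytes on plate 1, the only plate that lists it. The gene spans bases 83608193 to 83612653 of chromosome 8. The lowest, median and highest values were 0, 187.5 and 371 CPM in 13 oocytes, against 0, 510 and 6361 CPM in 37 somatic cells, and 24 of 37 somatic cells were above the highest oocyte. The pooled values were 232.6 CPM in oocytes and 746 CPM in somatic cells, a log2 ratio of −1.68 (−1.79 to −1.57). Unlike *Hspa1a*, *Dnajb1* was read in 12 of 13 oocytes.

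*Hsph1*, which encodes the large chaperone HSP110, went the other way on the same plate. Its locus is chromosome 5, 149614287 to 149636376. Values were 22.1, 609 and 1339 CPM in 13 oocytes, against 0, 0 and 1816 CPM in 37 somatic cells, and 13 of 13 oocytes were above the somatic median. Reads were present in 13 of 13 oocytes and in 18 of 37 somatic cells. Pooled, *Hsph1* had 793 CPM in oocytes and 290.3 CPM in somatic cells, a log2 ratio of 1.45 (1.36 to 1.54), on a plate where 26.9% of the genes tested were at least 2-fold higher in oocytes. With cells thinned to 12000 counts the log2 ratio was 2.04. On plate 3, which holds no oocyte here, somatic cells had 0, 665 and 2685 CPM, or 861 CPM pooled.

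*Hspb1*, the small heat shock protein HSP27 of humans (HSP25 in mice), binds actin and unfolded proteins and is induced by stress. It lies on chromosome 5 from 135887919 to 135889563, and 51.6% of its stretches of 50 bases also occur in the pseudogene *Hsp25-ps1*, which makes its counts uncertain. On plate 5 it had 0, 0 and 111.1 CPM in 10 oocytes, against 0, 7.82 and 1065 CPM in 66 somatic cells, or 20.2 CPM in oocytes and 118.1 CPM in somatic cells pooled (log2 ratio −2.55, −3.44 to −1.78). Reads were present in 3 of 10 oocytes and 33 of 66 somatic cells, and with the highest cell of each group left out the log2 ratio was −3.22.

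On plate 6 the *Hspb1* difference was smaller and rested on few cells. Pooled values were 22.4 CPM in oocytes and 52.6 CPM in somatic cells (log2 ratio −1.23, −2.17 to −0.31), and 2 of the 12 somatic cells, with 178.6 and 581 CPM, carried the somatic value, the other 10 having no read. Reads were present in 7 of 13 oocytes, so by cells with a read the order was reversed. With TMM scaling the log2 ratio was −0.41, and with the highest cell of each group left out it was −0.43. On plate 3, 8 of 22 somatic cells had a read, with 160.6 CPM pooled.

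*Hspa8*, the constitutive cytosolic HSP70, was high in every somatic cell that could be measured. The gene spans bases 40800984 to 40810087 of chromosome 9, and 74.8% of its stretches of 50 bases occur in other transcripts, mostly the pseudogene *Gm15459*. On plate 3 it had 1118, 7364 and 16795 CPM in the lowest, median and highest of 22 somatic cells, all with reads, and 7483 CPM pooled (n = 22 cells).

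The inducible and constitutive members of HSP70 could be set against each other on plate 3 alone. Per kilobase of transcript, *Hspa1a* plus *Hspa1b* had 447 CPM and *Hspa8* 3126 CPM in somatic cells, a log2 ratio of −2.80 (−2.85 to −2.75), so that *Hspa8* was 6.96-fold higher. In single cells the inducible pair made 0% to 39.6% of the summed counts of the 3 genes, not scaled by length, with a median of 13.4% and quartiles of 2.47% and 20.4%. It exceeded *Hspa8* in 0 of 22 cells. Over the same cells *Hspa8* and the pair had a rho of 0.55. Each of these cells is from a transitioning follicle, and the same ratio in oocytes was not analysed here.

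The HSP90 pair also split between the cell types, on different plates. *Hsp90aa1*, the inducible cytosolic HSP90 alpha, lies on chromosome 12 from 110690605 to 110702728 and shares 58.5% of its stretches of 50 bases with other transcripts, mostly *Gm12346*. On plate 5 it had 2564, 6618 and 10419 CPM in 10 oocytes, against 191.04, 1876 and 5998 CPM in 66 somatic cells. Every oocyte was above the somatic median, 7 of 10 were above the highest somatic cell, and 53 of 66 somatic cells were below the lowest oocyte. Pooled, it had 6901 CPM in oocytes and 1950.2 CPM in somatic cells, a log2 ratio of 1.82 (1.77 to 1.88).

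*Hsp90ab1*, the constitutive HSP90 beta, had the opposite order on plate 6. It lies on chromosome 17 from 45567775 to 45573271, and 4.49% of its stretches of 50 bases occur elsewhere. The values were 3162, 4580.1 and 7232 CPM in 13 oocytes, against 8669, 11887 and 24233 CPM in 12 somatic cells, without overlap. Pooled values were 5049 CPM in oocytes and 13813 CPM in somatic cells, a log2 ratio of −1.45 (−1.51 to −1.40). The size of this ratio depended on scaling. It was −0.63 with TMM factors and −0.48 with median-of-ratios factors, within 2-fold though still lower in oocytes, on a plate where the median gene had a log2 ratio of −1.18.

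Since no plate lists both HSP90 genes, their levels can only be put side by side. Per kilobase, oocytes had 2103 CPM of *Hsp90aa1* on plate 5 and 2004 CPM of *Hsp90ab1* on plate 6, whereas somatic cells had 594 CPM of *Hsp90aa1* on plate 5 and 5481 CPM of *Hsp90ab1* on plate 6. Different genes make up the total on each plate, so no comparison was made.

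*Hspa5*, the HSP70 of the endoplasmic reticulum (BiP), was lower in oocytes on plate 5. Its locus is chromosome 2, 34771970 to 34777547. It had 731, 1529 and 2243 CPM in 10 oocytes, against 295, 6330.4 and 14154 CPM in 66 somatic cells, and 59 of 66 somatic cells were above the highest oocyte. The pooled values were 1598 CPM in oocytes and 5938 CPM in somatic cells, a log2 ratio of −1.89 (−1.98 to −1.81). All cells of both types had reads of *Hspa5*.

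*Hspa2*, known in mice for its need in male meiosis, was higher in oocytes at a low level. It lies on chromosome 12 from 76404176 to 76406938. On plate 5 it had 14.9, 95.3 and 391 CPM in 10 oocytes, against 0, 0 and 514 CPM in 66 somatic cells, with reads in 10 of 10 oocytes and 16 of 66 somatic cells. Pooled, it had 145.2 CPM in oocytes and 39.3 CPM in somatic cells (log2 ratio 1.89, 1.49 to 2.28). The single primordial oocyte, with 391 CPM, carried 51 of the 99 oocyte counts, and with the deepest oocyte of each group left out the log2 ratio was 1.15. At least 2-fold higher values in oocytes were seen for 21.6% of the genes tested on plate 5.

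**Figure D3:**
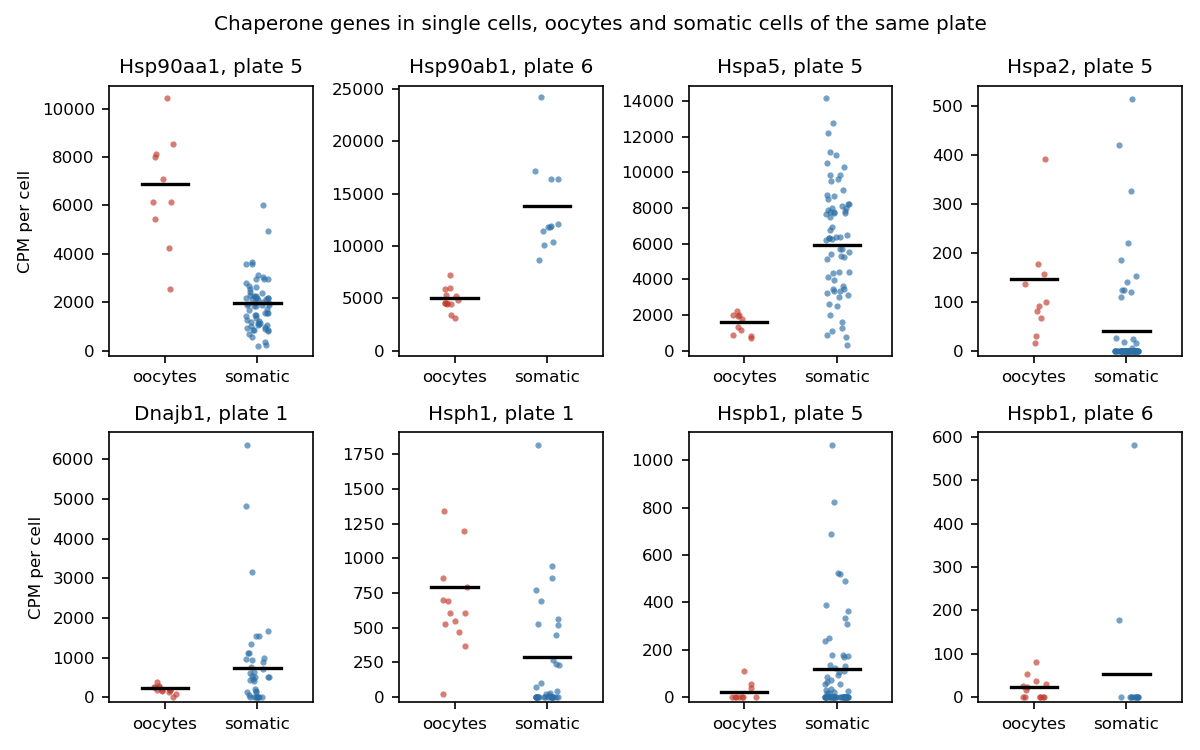
CPM in single cells for *Hsp90aa1*, *Hsp90ab1*, *Hspa5*, *Hspa2*, *Dnajb1*, *Hsph1* and *Hspb1* (plates 5 and 6) on the plates that list them, oocytes left and somatic cells right in each panel, with lines at the pooled values. *Hsp90ab1* separates the cell types fully, with oocytes at 3162 to 7232 CPM and somatic cells at 8669 to 24233 CPM.

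On plate 5, which lists 6 of the genes, the order of levels per kilobase was different in the 2 cell types. In oocytes it was *Hsp90aa1* (2103 CPM per kilobase), *Hspa5* (435), *Hspa2* (57.5), the sum of *Hspa1a* and *Hspa1b* (30.3) and *Hspb1* (21.7). In somatic cells it was *Hspa5* (1617), the sum of *Hspa1a* and *Hspa1b* (648), *Hsp90aa1* (594), *Hspb1* (126.96) and *Hspa2* (15.5). The counting intervals of the last 2 in oocytes overlapped (23.1 to 39.04 for the pair and 11.8 to 36.6 for *Hspb1*), and those of the pair and *Hsp90aa1* in somatic cells did not (632 to 664 and 580 to 609), although single cells of these genes overlapped widely.

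Put in terms of all values, 3 of 18 were higher in oocytes (*Hsph1* on plate 1, *Hspa2* and *Hsp90aa1* on plate 5) and 15 were lower. Most of the lower values were those of *Hspa1a* and *Hspa1b* on plates 1, 2, 4, 5 and 6, whose reads cannot be fully told apart. The rest were *Dnajb1* on plate 1, *Hspb1* on plates 5 and 6, *Hspa5* on plate 5 and *Hsp90ab1* on plate 6. The count is thus no measure of the 10 genes as a group. At least 2-fold higher values were seen for 26.9%, 23.2%, 26.9%, 21.6% and 22% and at least 2-fold lower values for 43.2%, 60.9%, 54.2%, 47.8% and 51.9% of the genes tested on plates 1, 2, 4, 5 and 6, and the median log2 ratios of all genes tested were −0.56, −2.36, −1.42, −0.90 and −1.18. On plates 1, 5 and 6 the *Hspa1a* and *Hspa1b* ratios lay further below these medians than those of the other genes listed there. TMM factors moved the median of all genes up by 0.14 to 1.64 on the log2 scale and median-of-ratios factors by 0.28 to 1.96.

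**Figure D4:**
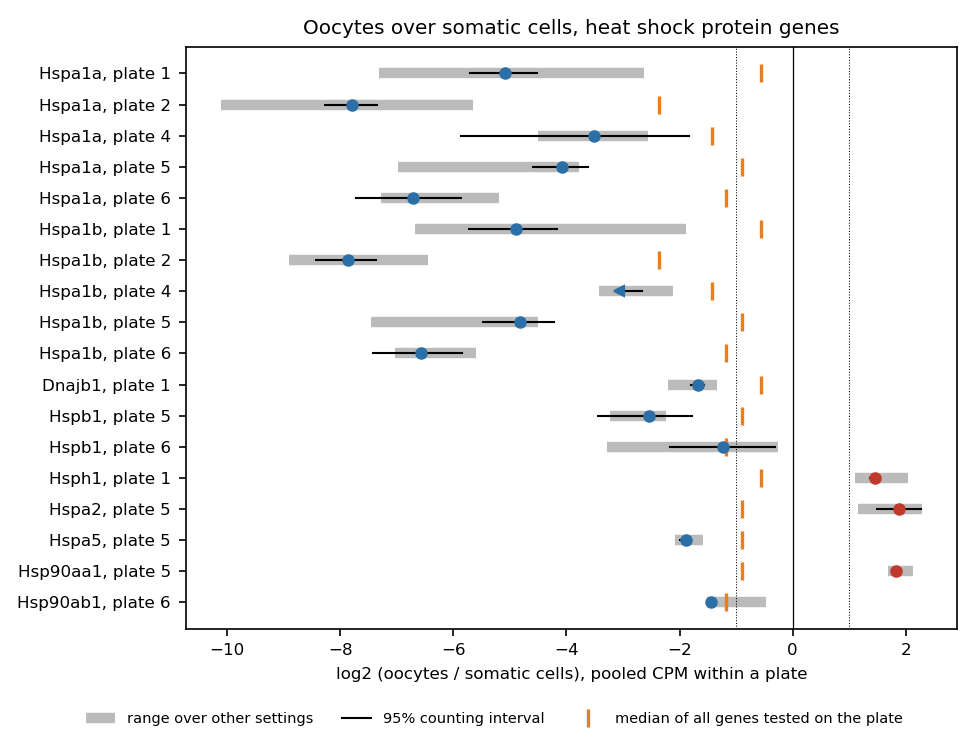
Log2 ratio of oocytes over somatic cells for each gene and plate, with the 95% counting interval, the range over other settings in grey and the median of all genes tested on the plate as an orange tick; a triangle marks a bound. *Hspa1a* and *Hspa1b* lie between −7.87 and −3.08, and *Hsph1*, *Hspa2* and *Hsp90aa1* between 1.45 and 1.89.

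Stages of somatic cells could be compared on plates 1 and 5. Of 24 values on plate 1, 12 (50.0%) differed by at least 2-fold between stages, against 75.8%, 73.5%, 75.3%, 75.4%, 77.1% and 61.6% of all genes tested in its 6 comparisons (transitioning, primary and secondary over primordial, primary and secondary over transitioning, and secondary over primary). On plate 5, 0 of 18 values did, against 62%, 58.4% and 51.2% of all genes in the 3 comparisons. With totals over the genes on every plate 4 of 18 did, *Hspa1a* and *Hspa1b* in primary (log2 ratios 1.51 and 1.30) and secondary (1.31 and 1.45) over primordial cells. With the plate's own totals, the share of values past 2-fold was not above that of other genes on either plate.

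On plate 1 *Hsph1* was higher in somatic cells of each later stage than in primordial cells. Secondary over primary cells had a log2 ratio of 0.015 (−0.15 to 0.18), so the last step showed no rise. Primordial, transitioning, primary and secondary cells (n = 19, 8, 5 and 5) had 63.6, 236.8, 433 and 438 CPM. Reads were present in 5 of 5 secondary cells and 6 of 19 primordial cells, and the secondary values were 17.97, 20.9, 267, 770.5 and 947 CPM. Median total counts were 311480 in secondary and 63070.5 in primordial cells, and these shares were not set to equal depth. Over primordial cells the log2 ratio was 1.90 (1.55 to 2.25) in transitioning, 2.77 (2.46 to 3.09) in primary and 2.78 (2.47 to 3.11) in secondary cells. With the highest cell of each group left out these ratios were 2.97, 3.92 and 3.57, so the order of primary and secondary cells rests on single cells. Transitioning and primary cells overlapped widely, and the transitioning value rests on 3 of 8 cells.

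*Dnajb1* had no steady order over the same stages. Primordial, transitioning, primary and secondary cells had 1216, 327, 506 and 783 CPM. The transitioning and primary cells were below the primordial cells by a log2 ratio of −1.89 (−2.06 to −1.73) and −1.27 (−1.39 to −1.14). The primary value did not hold when cells were thinned to equal depth, where the log2 ratio was 0.06. Its 5 primary cells had 11.1, 210.1, 510.4, 988 and 3170 CPM, a spread wider than the stage differences.

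Over primordial cells, the sum of *Hspa1a* and *Hspa1b* was lower in primary and secondary somatic cells of plate 1 and higher in those of plate 5. On plate 1 it was 609, 157.4, 413 and 291 CPM in primordial, transitioning, primary and secondary cells, and on plate 5 it was 1242, 2185 and 2318 CPM in primordial, primary and secondary cells. Primary over primordial cells gave a log2 ratio of −0.56 (−0.71 to −0.41) on plate 1 and 0.81 (0.72 to 0.91) on plate 5, and secondary over primordial cells −1.06 (−1.23 to −0.90) and 0.90 (0.81 to 0.99). On plate 1, 6 of 19 primordial cells had a read of the pair, and the highest of them had 3465 CPM. With the highest cell of each group left out, primary over primordial cells of plate 1 gave 0.72 for *Hspa1a* in place of −0.57 and 0.90 for *Hspa1b* in place of −0.55, so the primary value of plate 1 did not keep its direction.

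On plate 5 the other genes stayed within 2-fold over the stages. *Hspa5* had 6046, 6774 and 5293 CPM in primordial, primary and secondary somatic cells (n = 21, 19 and 26). *Hsp90aa1* had 1749, 2119 and 2054 CPM, *Hspb1* had 116.4, 134.7 and 109.2 CPM, and *Hspa2* had 42.9, 44.9 and 31.9 CPM. Single cells of a stage spread far wider than the stages, with *Hspa5* at 295 to 14154 CPM over primordial cells alone.

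**Figure D5:**
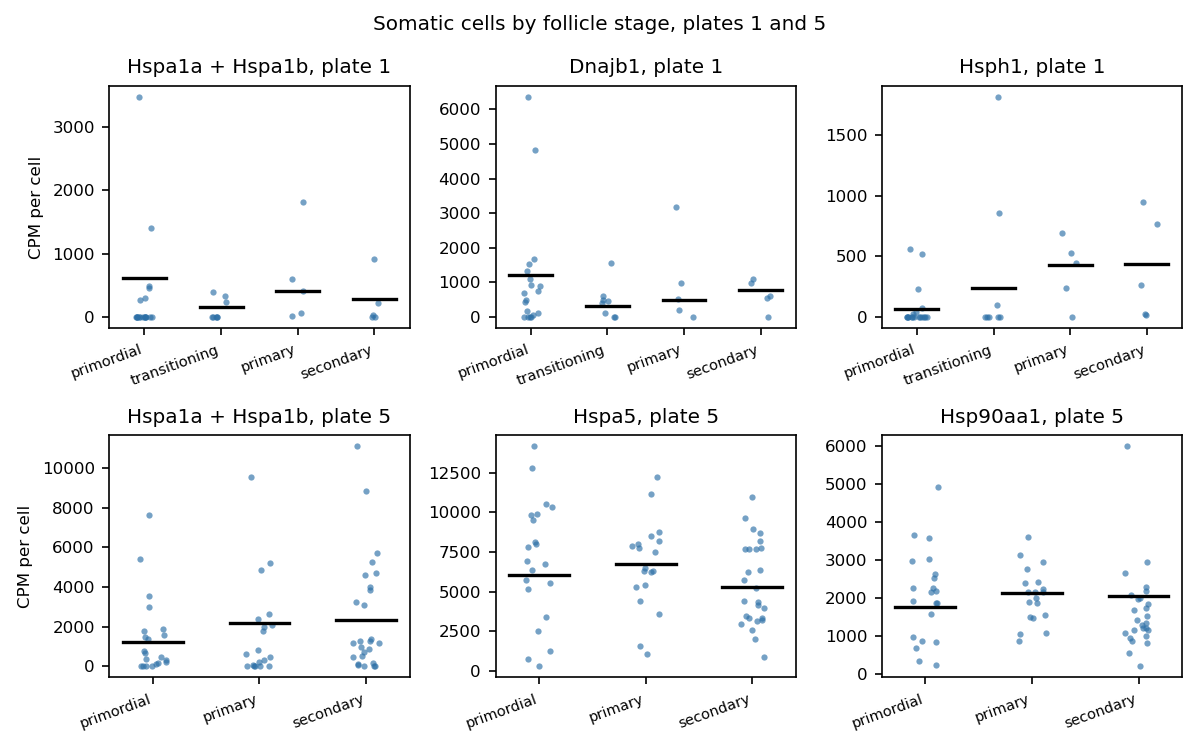
Single somatic cells by stage for *Hspa1a* plus *Hspa1b*, *Dnajb1* and *Hsph1* on plate 1 and *Hspa1a* plus *Hspa1b*, *Hspa5* and *Hsp90aa1* on plate 5, in CPM, with lines at the pooled values. *Hsph1* is at 63.6 CPM in primordial and 438 CPM in secondary cells of plate 1, and cells of neighbouring stages overlap in each panel.

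Stages of oocytes gave 3 comparisons and 13 tested values, of which 1 was higher and 4 were lower at the later stage by at least 2-fold. On plate 1, 2 of 4 values passed against 49.3% of all genes tested, on plate 5, 1 of 5 against 29.4%, and on plate 6, 2 of 4 against 27%. All 5 were values of *Hspa1a*, *Hspa1b* or *Hspb1*, at levels below 40 CPM. *Hspa1a* was at 0 in 7 primary oocytes of plate 1 and at 15.2 CPM in 5 primordial oocytes. Of the 25.5 primordial counts 22 were in 1 oocyte. *Hspb1* was at 32.9 CPM in 5 secondary and at 0 in 4 primary oocytes of plate 5, from 2 of the secondary oocytes.

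The abundant members differed less between stages of oocytes. *Hsp90aa1* on plate 5 had 6743 CPM in 5 secondary and 7717 CPM in 4 primary oocytes, a log2 ratio of −0.19, and *Hspa5* had 1113 CPM in secondary and 1875 CPM in primary oocytes, a log2 ratio of −0.75. *Hsp90ab1* on plate 6 had 5975, 5054 and 3979 CPM in transitioning, primary and secondary oocytes (n = 3, 8 and 2). *Hsph1* on plate 1 had 1118 CPM in 7 primary and 563 CPM in 5 primordial oocytes, a log2 ratio of 0.99 that came to 0.17 without the deepest oocyte of each group. Cells of the stages overlapped for *Hsp90aa1*, *Hspa5* and *Hsph1*, and between transitioning and primary oocytes for *Hsp90ab1*.

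The 10 genes stood among wider lists of chaperones, which were mixed between the cell types. Of 95 listed genes outside the 10, 74 were tested, and of their gene-by-plate values 22 (16.4%) were at least 2-fold higher and 41 (30.6%) at least 2-fold lower in oocytes, smaller shares than those of all genes on any of these plates. Their median log2 ratio was −0.23, above the medians of all genes tested on each plate given before. On every plate that tested them, 16 genes were lower and 7 were higher in oocytes.

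Exchange factors and partners of HSP70 were mixed, with 5 higher and 10 lower of 25 values and a median log2 ratio of −0.28. *Bag3*, a nucleotide exchange factor of HSP70 that is induced by stress, had log2 ratios of −2.93, −6.90, −5.87, −3.78 and −5.69 on plates 1, 2, 4, 5 and 6, and *Bag2*, a cofactor of HSP70 that slows the CHIP ligase, had 4.57 CPM in oocytes and 438 CPM in somatic cells of plate 2. *Sil1*, the exchange factor of BiP, went the other way, with 933 CPM in oocytes and 198.7 CPM in somatic cells of plate 2 (log2 ratio 2.23) and 1015 CPM in oocytes and 298 CPM in somatic cells of plate 4 (1.77). *Stub1*, which encodes the CHIP ligase, was within 2-fold on all 5 plates. Of the genes listed as small heat shock proteins by their names, 3 of 9 were tested. All 6 values were at least 2-fold lower in oocytes, among them those of *Hspb11* on plates 2, 4 and 6. Values at least 2-fold lower were seen for 43.2% (plate 1) to 60.9% (plate 2) of all genes tested on the plates. *Hspb8* had 0 counts in oocytes and 54.4 CPM in somatic cells of plate 2, *Hspb6* had 3.78 CPM in oocytes and 55.3 CPM in somatic cells of plate 1, and *Hspb11* had 8.97 CPM in oocytes and 43.96 CPM in somatic cells of plate 6.

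Regulators of the response did not follow *Hspa1a*. *Hsf1*, the heat shock factor that drives the inducible genes, had 810 CPM in oocytes and 588 CPM in somatic cells of plate 5 (log2 ratio 0.46), and *Hsf2* had 437 and 287 CPM in the same order (0.61). Of 8 values of heat shock factors and their binding protein, 5 were higher and 0 lower in oocytes by at least 2-fold, and these were *Hsbp1* on plate 4 and 4 values of *Hsf5*, which stayed at or below 10.3 CPM in oocytes. *Stip1*, which hands clients between HSP70 and HSP90, had 889 CPM in oocytes and 417 CPM in somatic cells of plate 5 (log2 ratio 1.09), but its log2 ratio was −0.35, −0.995, −0.51 and −0.45 on plates 1, 2, 4 and 6. Of 22 values of HSP90 co-chaperones and relatives 2 were higher and 7 lower, with *Ppid*, the cyclophilin Cyp40, at −3.73 on plate 2.

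Genes of endoplasmic reticulum chaperones and the unfolded protein response were mostly within 2-fold between the cell types. Of 24 values of 14 genes, 4 were at least 2-fold higher and 5 at least 2-fold lower in oocytes. All 4 higher values were of 1 gene, *Creld2*, on plates 2, 4, 5 and 6. The lower values were of *Herpud1* on plates 1 and 5 and of *Pdia6*, *Sdf2l1* and *Atf4* on plate 1. *Creld2*, which is induced by unfolded proteins, had 1275 CPM in oocytes and 263 CPM in somatic cells of plate 5 (log2 ratio 2.28), while *Herpud1*, which serves degradation from the endoplasmic reticulum, had 23.5 CPM in oocytes and 209.2 CPM in somatic cells of the same plate (log2 ratio −3.16). J-domain proteins had 3 higher and 5 lower of 20 values, with *Dnaja3*, a mitochondrial member, at 363 CPM in oocytes and 140.9 CPM in somatic cells of plate 1. *Dnaja4* had 21.8 CPM in oocytes of the same plate, against 1 count in somatic cells (log2 ratio 6.87, 4.35 to 12.2), and *Dnajb14* had 10.8 CPM in oocytes and 49.2 CPM in somatic cells (−2.19).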

How the data were processed

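Single oocytes and somatic cells were sequenced with SMART-Seq2. The authors aligned reads to GRCm38, removed cells with few genes or a high module score of the other cell type, and deposited an estimated count per gene and cell (17.2% of values above 0 were not whole) without normalization; the aligner and counter are not given in the sources used here. The fraction of reads on rRNA and the plate, code and time labels of each cell were deposited by the authors. The submitters' notes name Seurat 4 and mm10.

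Rows with dates in place of names (27 rows, 0.0743% of counts) were left out. Missing values, which mark genes a plate does not list, stayed missing. Counts were summed over cells of a group and plate and scaled to CPM. Groups of at least 3 cells were compared within plates. A gene was tested with at least 5 CPM and more than 3 counts in 1 of the groups, and called at 2-fold. Here "tested" means that a ratio was taken; a p-value was computed only for *Hspa1a* and *Hspa1b* over the 5 plates, by an exact sign-flip permutation test. Intervals (95%) are exact, Poisson for levels and binomial for ratios and for shares of cells. A group at 0 was set to 3 counts. Lengths, gene positions and shared stretches of 50 bases came from GENCODE transcripts of GRCm38, and the ratio scripts were tested on simulated data.

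All 10 genes are described wherever listed. From other lists, the 2 or 3 highest and lowest ratios were named (1 of them is not reported here), with markers and immediate early genes beside a member's value, and for *Hspa1a* the 5 genes with the highest mean rho. The same rule named none for *Hsp90ab1*, which is on 1 plate. *Stub1*, *Hspa9* and *Hspd1*, *Hsbp1*, *Krt18*, *Foxl2*, *Pdia6*, *Sdf2l1*, *Atf4* and the further plates of *Bag3* and *Stip1* were named after their values were seen. Members and lists were chosen with earlier results of these data known. Alternatives were TMM (edgeR 4.0.16) and median-of-ratios (DESeq2 1.42.0) factors in R 4.3.3, totals over genes on every plate, the mean of single cells, cells thinned to 12000 counts, the highest cell left out, the sum of *Hspa1a* and *Hspa1b*, at least 5 cells a group, and conflicting labels left out. Leaving out oocytes by code, time code or depth, cells of 1 stage only and the test over plates were chosen after seeing the data. Python 3.11.15, numpy 2.4.6, pandas 2.3.3 and scipy 1.17.1 were used.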

Additional observations from a re-analysis of the deposited data

Results flagged for a closer look

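Among 35 sets of 4 to 10 cells of 1 gene, stage and plate, 13 had a cell far above the others by Dixon's criterion, where chance flags about 1 set in 20 and single-cell counts with many zeros are flagged more easily. In oocytes all of these sets were of *Hspa1a* or *Hspa1b*. On plate 2 a primordial oocyte had 395 CPM of *Hspa1a* (next highest 6.60 CPM, 7 cells) and 201.96 CPM of *Hspa1b* (next 13.2 CPM). On plate 1 a primordial oocyte had 45.01 CPM of *Hspa1a* (next 6.28 CPM, 5 cells), another had 22.6 CPM of *Hspa1b*, and a primary oocyte had 13.3 CPM of *Hspa1b* (next 2.50 CPM, 7 cells).

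On plate 5 a secondary oocyte stood apart with 81.2 CPM of *Hspa1a* (next 13.5 CPM, 5 cells), a secondary oocyte with 14.9 CPM of *Hspa1b*, and a primary oocyte with 32.1 CPM of *Hspa1b* (the other 3 cells at 0). On plate 6 a primary oocyte had 140.1 CPM of *Hspa1a* (next 28.4 CPM, 8 cells). The somatic cells of plates 2, 5 and 6 had pooled levels of both genes above these oocytes.

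In somatic cells the sets were all on plate 1. A primary-stage cell had 1329 CPM of *Hspa1a* (next 341 CPM, 5 cells). Secondary-stage cells had 552 CPM of *Hspa1a* (next 157.3 CPM) and 361 CPM of *Hspa1b* (next 67.4 CPM). A transitioning-stage cell had 1555 CPM of *Dnajb1* (next 598 CPM, 8 cells).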

How the results depend on the processing

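The counts of values past 2-fold between oocytes and somatic cells kept near 3 higher and 15 lower in all settings run (3 to 4 higher, 12 to 15 lower), and of the single values 77 moved beyond their interval and 0 changed sign. Between somatic stages, 7 higher and 5 lower values became 15 and 3 with totals over genes on every plate. Between oocyte stages, where the main counts were 1 higher and 4 lower, TMM and median-of-ratios factors each gave 3 higher. The mean of single cells gave 2 lower, thinned cells 0 higher and 0 lower, leaving out the highest cell of each group 0 and 0, the sum of *Hspa1a* and *Hspa1b* 2 and 2, and groups of at least 5 cells 0 and 2. Leaving out primordial oocytes with a conflicting time code gave 2 lower and leaving out the deepest oocyte 1 lower, both chosen after seeing the data. Fewer values were tested under thinning (6 in place of 13) and with the highest cell left out (7); the cause of the other changes was not tested.

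The log2 ratio of inducible over constitutive HSP70, −2.80, was −2.96 as the median over cells, −2.98 without the cell with the most inducible counts, −3.65 for *Hspa1a* alone and −3.79 for *Hsph1* over *Hspa8*. Thinned shares of oocytes with a read were 0%, 12.5%, 10.0% and 46.2% on plates 1, 2, 5 and 6. The rho with immediate early genes changed sign without the 2 cells highest in them, to −0.079 on plate 1, −0.083 on plate 3 and 0.055 on plate 6. Of single values, *Hspa1a* in primary over transitioning oocytes of plate 6 was 0.047 as a mean of cells (−1.19 pooled), *Dnajb1* in primary over primordial somatic cells of plate 1 was 0.062 when thinned (−1.27), and *Hspa1b* in secondary over transitioning somatic cells of plate 1 was −0.64 when thinned and −0.42 without the highest cells (1.36). No paired analysis was possible because replicate numbers only name cells. The pairing by plate lies in the ratios, and without plate 4 the sign-flip permutation test of *Hspa1a* and of *Hspa1b* gave p = 0.125, the smallest that 4 plates allow. Without the highest cell of each group the sum of *Hspa1a* and *Hspa1b* gave −5.37, −9.45, −7.18 and −6.72 on plates 1, 2, 5 and 6 and no value on plate 4, and this too was chosen after seeing the data.

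The ratios of *Dnajb1* over *Hspa8* and of *Hsp90aa1* over *Hsp90ab1* were not run, since no plate lists both. Values of *Hspa1a* and *Hspa1b* in oocytes rest on 3 to 72.2 counts a plate, so depth limits what can be said of differences among oocytes. Counts are of reads without molecular identifiers, and the intervals leave out differences between animals, collections and plates.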

Other observations

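Among genes not described before, mitochondrial chaperones and the cytosolic chaperonin TRiC were close between the cell types. Of 11 values of 8 genes, 0 were at least 2-fold higher and 3 at least 2-fold lower in oocytes, with a median log2 ratio of −0.19. *Tcp1*, a TRiC subunit, had 1531 CPM in oocytes and 1052 CPM in somatic cells of plate 1. *Hspd1*, the mitochondrial chaperonin, had 718 CPM in oocytes and 1152 CPM in somatic cells of the same plate. *Cct7*, another TRiC subunit, was the lowest, with 497 CPM in oocytes and 2611 CPM in somatic cells of plate 2 (log2 ratio −2.39), a plate where the median gene had −2.36, followed by *Cct3* at −1.72 on the same plate. *Hspe1*, the partner of *Hspd1*, had the highest value, 0.76 on plate 4, and −1.19 on plate 1.

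Other HSP70 genes were mixed, with 3 higher and 5 lower of 18 values. *Hspa12a*, a distant member of the family, had 48.8 CPM in oocytes and 1.62 CPM in somatic cells of plate 4 (log2 ratio 4.91, 3.66 to 6.55). On plate 6 *Hspa12a* had 52.7 CPM in oocytes and 0 counts in somatic cells, and it was within 2-fold on plates 1, 2 and 5. *Hspa12b*, its nearest relative, had 0 counts in oocytes against 18.2 CPM in somatic cells of plate 1 and 14.3 CPM in somatic cells of plate 4. *Hspa4l*, a relative of *Hsph1*, had 399 CPM in oocytes and 158.3 CPM in somatic cells of plate 5 (log2 ratio 1.33), in the direction of *Hsph1* on plate 1. *Hspa13*, an HSP70 of microsomes, had 58.7 CPM in oocytes and 337 CPM in somatic cells of plate 5, and 38.1 CPM in oocytes and 582 CPM in somatic cells of plate 6. *Hspa9*, the mitochondrial HSP70, had log2 ratios of −0.60, −1.60, −0.44, 0.36 and 0.25 on plates 1, 2, 4, 5 and 6, past 2-fold on plate 2 alone. Among HSP90 co-chaperones, *Tomm70a*, an import receptor of the mitochondrial outer membrane, was lower in oocytes on all 5 plates, with log2 ratios of −1.11, −2.59, −2.74, −1.10 and −1.72.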
